A study of Mus musculus with 8 samples.

Results

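The DNA replication and S-phase genes described here are 40 genes, listed by name with earlier results of these data known. All 40 were rows of the deposited table of 23366 genes. They encode the proteins that license replication origins, unwind and copy DNA, supply nucleotides, rebuild chromatin and pass cells from G1 into S phase. The RNA came from C57BL/6 macrophages grown out of bone marrow, at passage 1 and after 24 h without serum, and made up 4 groups of 2 libraries. Knock-in LPS cells carried Lsd1SA/SA, a knock-in of the histone demethylase LSD1 that the series describes as lacking a phosphorylation, and had 2 h of lipopolysaccharide (LPS), a bacterial outer-membrane component, at a labelled 1 mg/ml. Knock-in untreated cells carried the same allele without LPS, wild-type LPS cells had LPS for the same time, and wild-type untreated cells had neither. No label ties the 2 libraries of a group to separate cultures or mice, and the spread behind every p-value here may be technical.

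A cell licenses its origins in G1, when the origin recognition complex with Cdc6 and Cdt1 loads the ring-shaped MCM helicase onto DNA. At the start of S phase Cdc45 and the GINS complex switch the helicase on, and polymerases held by the sliding clamp Pcna copy both strands. Many of these genes are transcribed by E2F factors once cyclin-dependent kinases, cyclin E's among them, have inactivated the retinoblastoma protein, and macrophages from marrow divide in culture until growth factor or serum is withdrawn or an inflammatory stimulus stops them.

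Values are reads per gene that the authors divided by library size and a further factor for each library (0.866 to 1.07), called signal here. Libraries held 40379258 to 55595160 reads, and a member had at least 50 reads in every library. Within a group, the median coefficient of variation over the 40 members was 3.79 to 4.72%. The macrophage markers Csf1r, Cd68, Emr1, Lyz2, Itgam, Mertk and Cd14 were read in every library, with summed signals of 11003 to 11608 in knock-in LPS, 12918 to 13646 in knock-in untreated, 16490.0 to 16824 in wild-type LPS and 13029 to 13119.7 in wild-type untreated libraries. The knock-in LPS libraries stood apart from the other 6. Xist, the RNA of the inactive X chromosome, was at 0.366 and 0.212 there, against 315 or more in each of the others, and transcripts of 4 Y-linked genes had 4993 and 5122 reads there, against at most 2 in any other library. By these transcripts knock-in LPS cells were male and the rest female. In any comparison with the knock-in LPS libraries, sex or animal of origin therefore cannot be told apart from the LPS or genotype compared. Il1b, a gene that LPS induces, had 1.77 and 1.18 in knock-in LPS and 1.26 and 1.68 in knock-in untreated libraries, and 2086 and 2318 in wild-type LPS and 1.28 and 1.27 in wild-type untreated libraries. Tnf, another gene that LPS induces, had 48.7 and 48.5 in knock-in LPS and 26.8 and 26.4 in knock-in untreated libraries, and 4039 and 3915 in wild-type LPS and 26.8 and 27.4 in wild-type untreated libraries. The LPS treatment of the knock-in LPS libraries is taken from their labels, and every direction given for LPS in the knock-in rests on those labels. Kdm1a, the gene of LSD1, had 39.3 and 40.4 in knock-in LPS, 33.7 and 32.6 in knock-in untreated, 47.3 and 45.8 in wild-type LPS and 33.9 and 31.1 in wild-type untreated libraries, which does not check a knock-in allele.

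Stretches of 6 member promoters are shown because they carry the short cores that E2F factors recognize and belong to genes on which the results below turn. RefSeq start sites on GRCm38.p6 gave windows of 300 bases (250 before to 50 after the start) for 33 of the 40 members by symbol, all but Mcm4, Gins1, Gins2, Rfc2, Prim2, Pole and Ccne2. The cores searched on both strands were the 7-letter words written as TTTGGCG, then as TTTCCCG, then as TTTCGCG. Matches may overlap. At least 1 core was found for 17 of the 33 members (51.5%), 17 of 34 other replication genes (50%) and 3 of 18 genes of G2 and mitosis (16.7%), beside 6.4% of all 27025 genes with a window. A second word, TTTGAA, the core of the CHR element of late cell cycle genes, was found for 4 of the 33 members (12.1%) and for 13 of the 18 genes of G2 and mitosis (72.2%), beside 20.2% of all genes. A match is a description of letters and not evidence of binding. In the stretches, which all end before the start site and read 5′ to 3′ along the gene, capitals mark the E2F-type cores on either strand. Mcm6 held 3 of them, of which 2 overlap, and Mcm5 held 2 that overlap.
Mcm6, chr1:128359726-128359835, minus strand: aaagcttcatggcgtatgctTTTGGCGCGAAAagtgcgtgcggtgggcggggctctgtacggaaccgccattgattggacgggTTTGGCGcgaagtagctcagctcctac
Mcm5, chr8:75109336-75109387, plus strand: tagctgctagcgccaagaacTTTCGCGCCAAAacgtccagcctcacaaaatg
Uhrf1, chr17:56304108-56304154, plus strand: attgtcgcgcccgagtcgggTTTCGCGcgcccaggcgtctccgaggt
Cdc6, chr11:98907994-98908040, plus strand: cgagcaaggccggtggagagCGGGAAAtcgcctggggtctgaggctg
Chaf1a, chr17:56040353-56040399, plus strand: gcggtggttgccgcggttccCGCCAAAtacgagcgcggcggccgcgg
Gins3, chr8:95633499-95633545, plus strand: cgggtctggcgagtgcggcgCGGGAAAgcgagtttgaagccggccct

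With LPS in the knock-in, replication genes of all 9 roles fell. Of the 40 members, 36 were lower in knock-in LPS than in knock-in untreated libraries, 1 was higher and 3 did not pass. Over all 11919 genes tested, 28.3% were called lower and 28.5% higher. The summed signal of the 40 members was 865 and 894 in knock-in LPS libraries, against 1502 and 1494 in knock-in untreated libraries. Without Pcna it was 624 and 635 in knock-in LPS, against 1111 and 1105 in knock-in untreated libraries. The median change was -0.86 on the log2(value + 1) scale, against 0.016 over all genes tested, and the 36 called members had 0.194 to 0.871 of their untreated mean. Tests are limma across all 8 libraries and all genes tested, with Benjamini-Hochberg adjustment, called at an adjusted p under 0.05. In bulk RNA, fewer cycling cells and less RNA per cycling cell cannot be told apart. Stromal markers were also higher in these libraries, with a summed signal of 55.5 and 55.5 over 8 genes in knock-in LPS libraries, against 17.4 and 18.9 in knock-in untreated libraries, where Lum was at 0 in both. Markers of mast cells and basophils summed to 77.5 and 78.9 over 4 genes in knock-in LPS libraries, against 29.9 and 31.4 in knock-in untreated libraries. Neutrophil markers spanned 293 to 299 in knock-in LPS and 226 to 228 in knock-in untreated libraries, and erythroid and megakaryocyte markers 159.8 to 168 in knock-in LPS and 186 to 191 in knock-in untreated libraries. B and T cell markers spanned 5.52 to 6.54 in knock-in LPS and 11.02 to 11.8 in knock-in untreated libraries. Only 2 B and T cell genes were tested, with changes of -1.16 and 0.32, and 1 was called lower. Only 2 erythroid and megakaryocyte genes were tested, with changes of -0.20 and 0.067, and 1 was called lower. Neither list moved in 1 direction. The part of these cells in the result was not tested.

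In wild-type macrophages few members passed the test with LPS. There 8 members were lower, 3 were higher and 29 did not pass, beside 30.7% of all genes tested called lower and 26.8% called higher. The summed signal was 1515 and 1507 in wild-type LPS libraries, against 1499 and 1491 in wild-type untreated libraries, and the median change was -0.065, against -0.032 over all genes tested. The 8 that fell were Orc1, Orc6, Cdc6 and Cdt1, which are all the licensing members, with Gins3, Fen1, Chaf1a and Ccne2. The 3 that rose were Mcm5, Pcna and Pola2, by 1.15- to 1.19-fold. The wild-type counts depend on scaling. Quantile normalization gave 1 member higher and 13 lower, beside 2539 genes higher and 4640 lower over all genes tested. Library-size scaling without the authors' factors gave 0 members higher and 33 lower, beside 1612 genes higher and 7692 lower. There the median of all genes moved to -0.30. The wild-type counts also rest on single libraries. Fewer members were called without wild type untreated replicate 1 or wild type LPS replicate 1, and fewer of all genes tested were called there too. Among the 8, the calls of Cdc6, Cdt1 and Chaf1a held in every alternative run, and that of Gins3 in every one except the filter at a signal of 5, which left Gins3 and Orc1 untested. Some markers of other cells also differed with LPS in wild type. Neutrophil markers spanned 461 to 472 in wild-type LPS and 224 to 228 in wild-type untreated libraries, mast cell and basophil markers 45.9 to 46.1 in wild-type LPS and 30.04 to 30.4 in wild-type untreated libraries, and erythroid and megakaryocyte markers 227 to 243 in wild-type LPS and 177 to 179.7 in wild-type untreated libraries. Stromal markers spanned 15.9 to 16.9 in wild-type LPS and 14.3 to 15.7 in wild-type untreated libraries, and B and T cell markers 8.995 to 10.9 in wild-type LPS and 9.88 to 11.3 in wild-type untreated libraries. The B and T cell sums overlap, and 0 of the 2 genes tested were called. Of the 6 stromal genes tested, 1 was called higher and 1 lower. The part of such cells in the result was not tested.

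**Figure D1:**
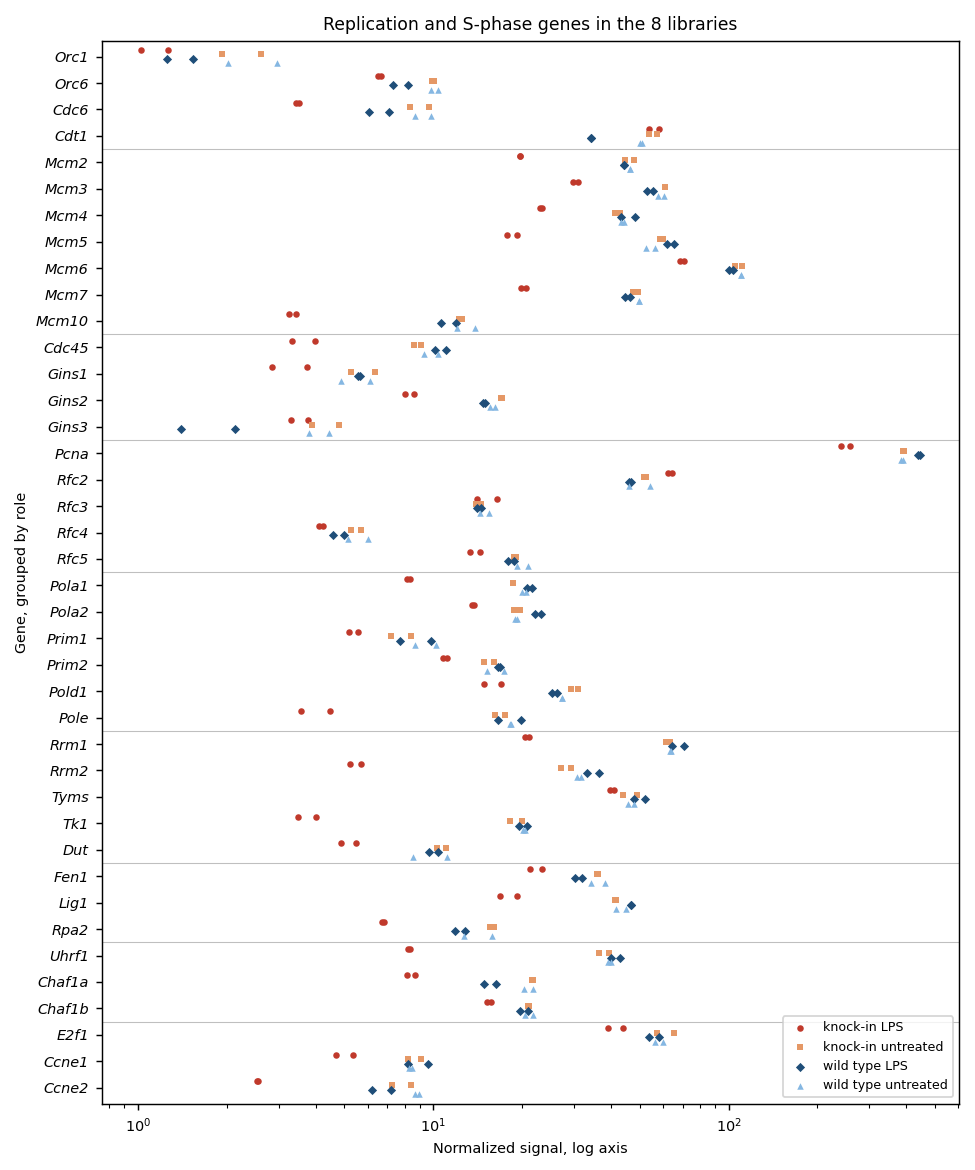
Signal of the 40 members in the 8 libraries, on a log axis, with genes in rows grouped by role and 2 points for each group. Knock-in LPS libraries (circles) lie left of the other 3 groups in most rows, and Cdt1, Gins3, Rfc2 and Rfc3 are rows where they do not stand below knock-in untreated libraries by a called difference.

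The licensing genes differed by gene and genotype. Cdt1, which brings the MCM ring to the origin, had 53.7 and 58.4 in knock-in LPS libraries, 57.2 and 53.7 in knock-in untreated libraries, 34.3 and 34.2 in wild-type LPS libraries and 50.98 and 50.1 in wild-type untreated libraries. The knock-in pairs overlap, and both wild-type LPS libraries lie below all other libraries. The change was 0.015 in the knock-in (95% interval -0.11 to 0.14, limma adjusted p = 0.857) and -0.55 ± 0.061 (SE, as for each change below) in wild type (limma adjusted p = 3.82e-08). Cdc6, the other loader, fell in both genotypes. It averaged 3.47 ± 0.0619 in knock-in LPS and 9.01 ± 0.894 in knock-in untreated libraries (-1.16 ± 0.11, limma adjusted p = 5.30e-09), and 6.59 ± 0.720 in wild-type LPS and 9.26 ± 0.840 in wild-type untreated libraries (-0.44 ± 0.11, limma adjusted p = 0.00195; SD, n = 2 each). Orc1 and Orc6, subunits of the origin recognition complex, fell in both, with log2 changes of -0.60 and -0.54 in the knock-in and -0.53 and -0.34 in wild type. The wild-type call of Orc6 was lost after quantile normalization (limma adjusted p = 0.0877) and without wild type LPS replicate 1 (0.0660), in a range of 1.09e-05 to 0.0877. Orc1 was the lowest member, at 1.02 and 1.27 in knock-in LPS libraries and 1.93 and 2.62 in knock-in untreated libraries. Its calls were lost without knock-in untreated replicate 2 (limma adjusted p = 0.0529 in the knock-in) and without wild type untreated replicate 1 (limma adjusted p = 0.130 in wild type) or wild type LPS replicate 1 (0.0558), in ranges over the alternatives of 0.000897 to 0.0529 in the knock-in and 0.000329 to 0.130 in wild type.

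All 7 MCM genes fell with LPS in the knock-in, by log2 changes of -0.63 to -1.63. Mcm2 to Mcm7 encode the 6 subunits of the helicase ring, and Mcm10 a factor that helps start it. Mcm6 had 70.7 and 68.4 in knock-in LPS libraries, 111 and 105 in knock-in untreated libraries, 101 and 103 in wild-type LPS libraries and 111 and 110.3 in wild-type untreated libraries. Every knock-in LPS value lies below every other value. The change was -0.63 ± 0.051, limma adjusted p = 2.21e-10, in the knock-in, and -0.11 ± 0.051, limma adjusted p = 0.0633, in wild type, which did not pass. Mcm5 had 17.8 and 19.2 in knock-in LPS libraries, 58.8 and 59.8 in knock-in untreated libraries, 65.5 and 61.7 in wild-type LPS libraries and 56.2 and 52.6 in wild-type untreated libraries. It fell in the knock-in (-1.63 ± 0.063, limma adjusted p = 1.81e-16) and rose in wild type (0.22 ± 0.063, limma adjusted p = 0.00435), and the groups did not overlap in either comparison. The wild-type change was -0.069 without the authors' factors, and its call was lost after quantile normalization (limma adjusted p = 0.365) and without wild type LPS replicate 1 (limma adjusted p = 0.0607), its adjusted p spanning 0.000757 to 0.365 across the alternatives. The remaining ring genes Mcm2 (-1.19), Mcm3 (-0.99), Mcm4 (-0.84) and Mcm7 (-1.22) fell in the knock-in, as did Mcm10 (-1.62), and none of the 5 passed in wild type.

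Of the genes that switch the helicase on, Cdc45, Gins1 and Gins2 fell in the knock-in and Gins3 fell in wild type. Gins2 had 8.04 and 8.61 in knock-in LPS libraries, 16.97 and 17.1 in knock-in untreated libraries, 14.97 and 14.7 in wild-type LPS libraries and 16.2 and 15.6 in wild-type untreated libraries. Knock-in LPS values are the lowest, and the wild-type LPS pair lies just below the wild-type untreated pair (-0.95 ± 0.086, limma adjusted p = 1.39e-09, in the knock-in; -0.094 ± 0.086, limma adjusted p = 0.367, in wild type). Opposite-strand exons of Gse1 cover 67.3% of its exon bases, and Gse1 itself was higher with LPS in the knock-in, at 75.7 and 77.5 in knock-in LPS and 63.7 and 64.98 in knock-in untreated libraries. In wild type Gse1 was lower with LPS, at 39.7 and 37.8 in wild-type LPS and 64.7 and 66.04 in wild-type untreated libraries. Cdc45 averaged 3.66 ± 0.465 in knock-in LPS and 8.85 ± 0.333 in knock-in untreated libraries (-1.08 ± 0.11, limma adjusted p = 7.58e-09), and Gins1 changed by -0.67. Gins3 had 3.76 and 3.30 in knock-in LPS libraries, 3.88 and 4.80 in knock-in untreated libraries, 2.14 and 1.40 in wild-type LPS libraries and 3.81 and 4.44 in wild-type untreated libraries. Both wild-type LPS libraries are the lowest of the 8. Its wild-type change was -0.90 ± 0.14, limma adjusted p = 7.37e-06, beside -0.23 in the knock-in (95% interval -0.53 to 0.059, limma adjusted p = 0.166).

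The clamp and its loader split. Pcna, the sliding clamp that holds polymerases on DNA, had 241 and 259 in knock-in LPS libraries, 391 and 389.5 in knock-in untreated libraries, 439 and 446 in wild-type LPS libraries and 388 and 384 in wild-type untreated libraries. It fell in the knock-in (-0.64 ± 0.046, limma adjusted p = 1.80e-11) and rose in wild type (0.20 ± 0.046, limma adjusted p = 0.000802), with no overlap of the groups in either comparison. The wild-type change was -0.20 after quantile normalization and -0.10 without the authors' factors, so its direction there rests on the scaling. The annotation names a pair of Pcna pseudogenes, and reads of near-identical copies cannot be assigned with certainty. Rfc2 to Rfc5 encode subunits of the complex that opens the clamp. Rfc2 had 62.4 and 64.5 in knock-in LPS and 52.5 and 51.7 in knock-in untreated libraries, and was the 1 member that rose with LPS in the knock-in (0.28 ± 0.066, limma adjusted p = 0.000973). In wild type it had 46.7 and 46.01 with LPS and 54.4 and 46.1 untreated, where the pairs overlap. Opposite-strand exons of Lat2, which fell in the knock-in to 233 and 229.8, against 278 and 281 untreated, cover 15.1% of its exon bases. Rfc5 fell (-0.43) and Rfc4 fell (-0.33, limma adjusted p = 0.0195), while Rfc3 did not pass (0.095, limma adjusted p = 0.382). Rfc4 lost its call in 5 alternatives, among them leaving out either knock-in LPS library (limma adjusted p = 0.0569 and 0.0922) or knock-in untreated replicate 2 (0.120), in a range of 0.00933 to 0.120.

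All 6 polymerase and primase genes fell in the knock-in. Pole encodes the catalytic subunit of the leading-strand polymerase epsilon and moved most, at 3.57 and 4.46 in knock-in LPS and 17.5 and 16.2 in knock-in untreated libraries (-1.84 ± 0.10, limma adjusted p = 1.75e-13). Pold1, the catalytic subunit of polymerase delta, had 14.9 and 17.01 in knock-in LPS libraries, 29.4 and 31.01 in knock-in untreated libraries, 26.3 and 25.3 in wild-type LPS libraries and 27.4 and 27.2 in wild-type untreated libraries. Its knock-in LPS pair lies below the rest (-0.88 ± 0.077, limma adjusted p = 6.85e-10), and its wild-type change did not pass (-0.079). Pola1 and Pola2 belong to polymerase alpha, which with the primase subunits Prim1 and Prim2 lays down the primers. Pola1, which lies on the X chromosome, had 8.37 and 8.19 in knock-in LPS and 18.6 and 18.6 in knock-in untreated libraries (-1.08). Pola2 had 13.7 and 13.6 in knock-in LPS libraries, 19.6 and 18.8 in knock-in untreated libraries, 23.2 and 22.2 in wild-type LPS libraries and 18.9 and 19.2 in wild-type untreated libraries. It fell in the knock-in (-0.46 ± 0.078, limma adjusted p = 2.28e-05) and rose in wild type (0.24 ± 0.078, limma adjusted p = 0.0110), where the value was -0.042 without the authors' factors and the call was lost without wild type LPS replicate 1 (limma adjusted p = 0.0751), in a range of 0.00451 to 0.625. Prim1 and Prim2 each fell by 0.46 on the log2 scale in the knock-in and did not pass in wild type.

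**Figure D2:**
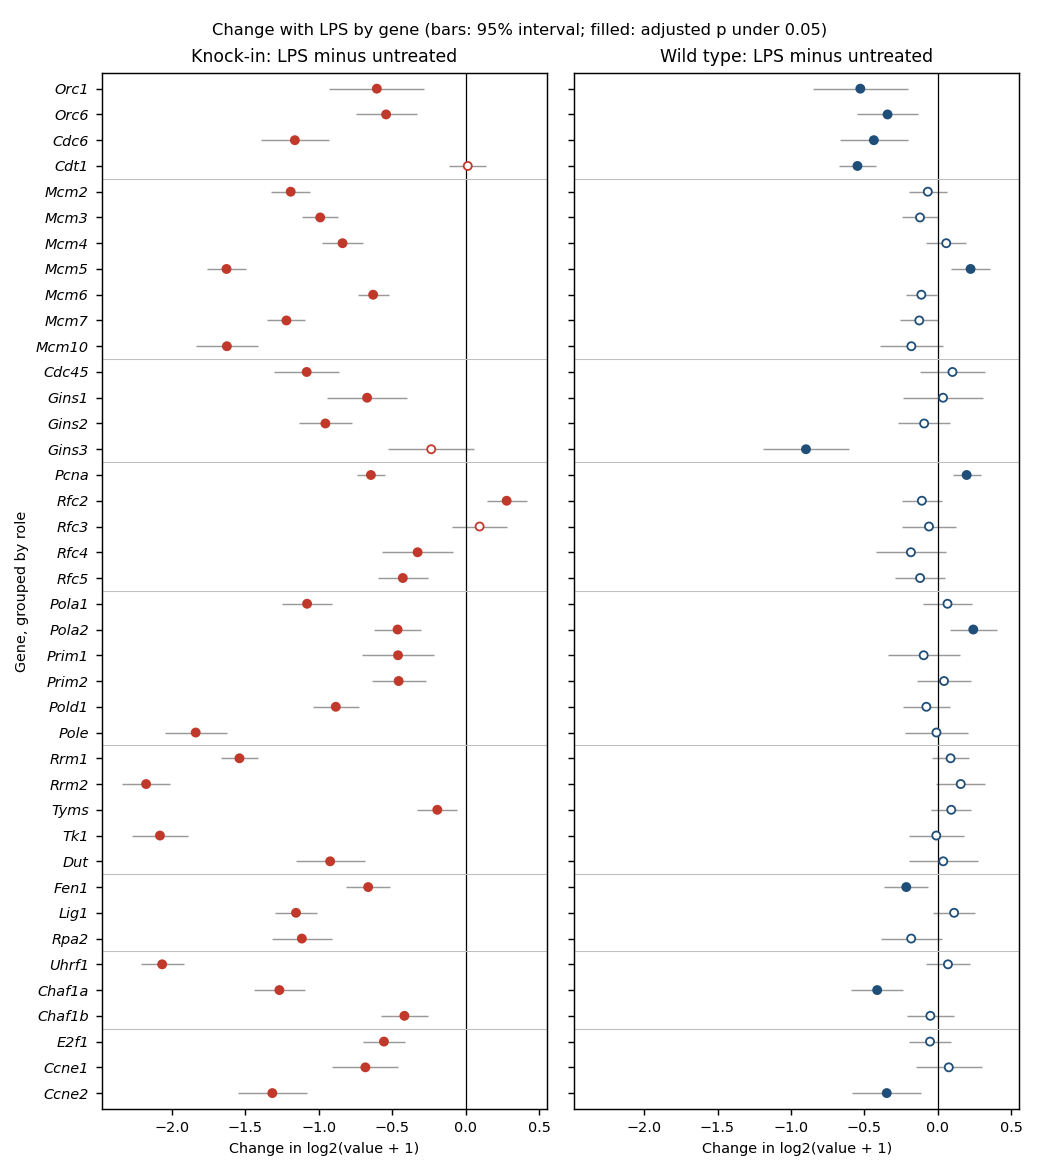
Change with LPS of each member in the knock-in (left) and in wild type (right), as LPS minus untreated on the log2(value + 1) scale, with 95% intervals as bars and filled points for limma adjusted p under 0.05. In the knock-in 36 filled points lie left of 0 and Rfc2 right of it, and in wild type 8 lie left and 3 right.

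Nucleotide supply held the largest single decreases. Rrm2, the regulated small subunit of ribonucleotide reductase, had 5.71 and 5.24 in knock-in LPS and 29.3 and 27.2 in knock-in untreated libraries, a knock-in LPS mean of 0.194 of the untreated mean (-2.17 ± 0.080, limma adjusted p = 5.86e-17). Tk1, thymidine kinase, had 4.01 and 3.48 in knock-in LPS and 18.1 and 19.9 in knock-in untreated libraries (-2.08 ± 0.091, limma adjusted p = 1.82e-15). Rrm1, the large subunit of the reductase, had 20.5 and 21.2 in knock-in LPS libraries, 63.6 and 61.4 in knock-in untreated libraries, 70.5 and 64.6 in wild-type LPS libraries and 63.8 and 63.3 in wild-type untreated libraries. The knock-in LPS pair lies below all 6 other libraries in each of these 3 genes. The Rrm1 change was -1.54 ± 0.061, limma adjusted p = 2.21e-16, in the knock-in, and 0.086 ± 0.061, limma adjusted p = 0.236, in wild type. Dut, which clears dUTP, fell in the knock-in (-0.92), and Tyms, thymidylate synthase, fell by 0.19 (limma adjusted p = 0.0157), a call that, for a gene with an annotated pseudogene, was lost without knock-in untreated replicate 2 (0.233) or knock-in LPS replicate 1 (0.102), in a range of 0.00423 to 0.233. None of the 5 genes passed in wild type.

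Lagging-strand and chromatin genes fell in the knock-in in all 6 cases. Lig1, the ligase that joins Okazaki fragments, had 19.3 and 16.9 in knock-in LPS libraries, 41.1 and 41.6 in knock-in untreated libraries, 46.8 and 46.6 in wild-type LPS libraries and 41.6 and 44.9 in wild-type untreated libraries. Its knock-in LPS pair lies below the lowest other value (-1.15 ± 0.070, limma adjusted p = 8.23e-13). Fen1, the flap endonuclease, fell in both genotypes (-0.66 in the knock-in, -0.22 in wild type), and Rpa2, a subunit of the single-strand binding protein, fell in the knock-in (-1.11) with -0.18 in wild type, which did not pass. The wild-type Fen1 call was lost without wild type untreated replicate 1 (limma adjusted p = 0.172) or wild type LPS replicate 2 (0.114), in a range of 2.80e-06 to 0.172, and opposite-strand exons of Gm10143 cover 78.8% of its exon bases. Uhrf1, which carries DNA methylation over to the new strand, had 8.35 and 8.24 in knock-in LPS libraries, 39.2 and 36.6 in knock-in untreated libraries, 40.03 and 43.00 in wild-type LPS libraries and 39.2 and 39.9 in wild-type untreated libraries. Its knock-in LPS mean was 0.219 of the knock-in untreated mean (-2.06 ± 0.071, limma adjusted p = 1.69e-17), and its wild-type pairs lie close together (0.068 ± 0.071, limma adjusted p = 0.434). Chaf1a, the large subunit of the histone chaperone CAF-1, had 8.66 and 8.19 in knock-in LPS and 21.6 and 21.7 in knock-in untreated libraries (-1.27 ± 0.085, limma adjusted p = 6.00e-12), and 16.3 and 14.8 in wild-type LPS and 20.3 and 21.8 in wild-type untreated libraries (-0.41 ± 0.085, limma adjusted p = 0.000198). Ubxn6 exons on the other strand cover 52.5% of its exon bases, and Ubxn6 had 58.5 and 60.1 in wild-type LPS and 56.7 and 58.9 in wild-type untreated libraries. Chaf1b, the middle subunit, fell in the knock-in (-0.42) and did not pass in wild type (-0.052).

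The regulators of S-phase entry also fell in the knock-in. E2f1, an activator E2F, had 38.98 and 43.8 in knock-in LPS libraries, 57.4 and 65.3 in knock-in untreated libraries, 53.9 and 58.1 in wild-type LPS libraries and 56.3 and 60.1 in wild-type untreated libraries. Its knock-in LPS pair is the lowest (-0.56 ± 0.069, limma adjusted p = 3.26e-07), and the wild-type pairs overlap (-0.054). Ccne2, a cyclin E gene, averaged 2.54 ± 0.0224 in knock-in LPS and 7.84 ± 0.850 in knock-in untreated libraries (-1.32 ± 0.11, limma adjusted p = 5.96e-10), and 6.72 ± 0.693 in wild-type LPS and 8.81 ± 0.191 in wild-type untreated libraries (-0.35 ± 0.11, limma adjusted p = 0.0109; SD, n = 2 each). Its wild-type call was lost in 3 alternatives, among them without wild type untreated replicate 1 (limma adjusted p = 0.0538) and without wild type LPS replicate 1 (0.118), in a range of 4.55e-05 to 0.175. Ints8 exons on the other strand cover 17.4% of Ccne2 exon bases. Ints8 had 13.8 and 12.6 in knock-in LPS and 15.6 and 15.5 in knock-in untreated libraries. In wild type Ints8 had 20.8 and 20.5 with LPS and 16.04 and 15.7 untreated. Ccne1, the other cyclin E gene, fell in the knock-in (-0.68) and did not pass in wild type (0.074).

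**Figure D3:**
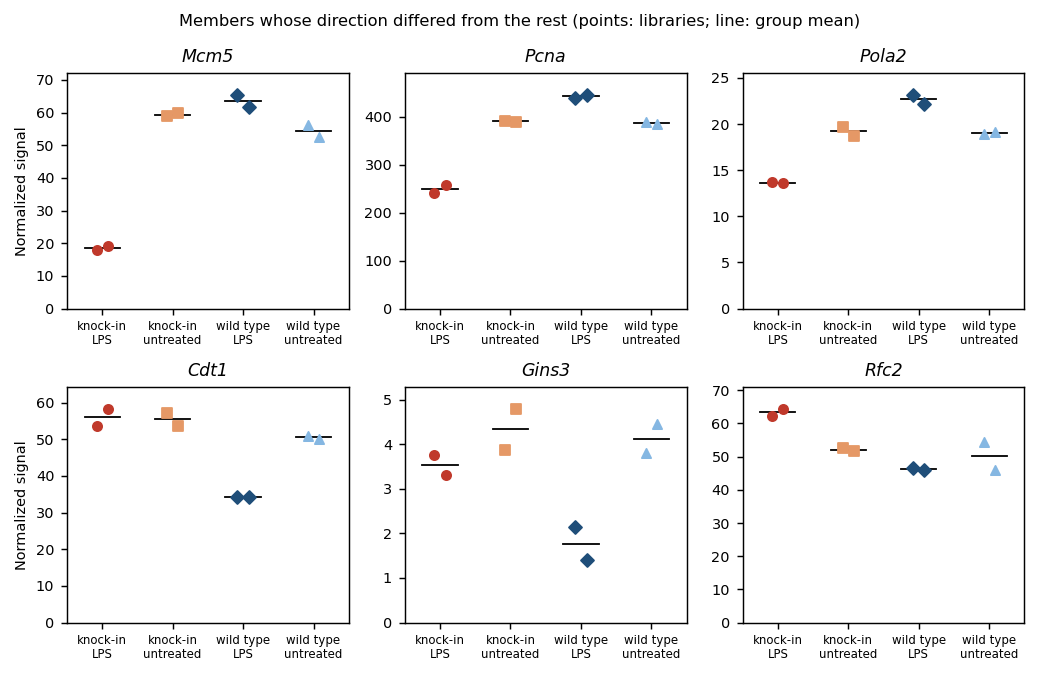
Signal of Mcm5, Pcna, Pola2, Cdt1, Gins3 and Rfc2 in each library, with the group mean as a line and each axis from 0. In the upper row knock-in LPS is lowest and wild-type LPS highest, and in the lower row wild-type LPS is lowest for Cdt1 and Gins3 and knock-in LPS is highest for Rfc2.

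Between genotypes with LPS, 33 members were lower in knock-in than in wild-type libraries and 3 were higher, beside 36.8% and 38.5% of all genes tested. This comparison and the knock-in LPS comparison share the 2 knock-in LPS libraries. By sex-linked transcripts these were male and the wild-type LPS libraries female, so genotype and sex or animal of origin cannot be told apart here. The median change was -0.76, against 0.023 over all genes tested. The knock-in LPS mean of Rrm2 was 0.157 of the wild-type LPS mean, at 5.71 and 5.24 in knock-in LPS and 33.2 and 36.5 in wild-type LPS libraries (-2.47 ± 0.080, limma adjusted p = 1.04e-18). The 3 that were higher were Cdt1 (0.69 ± 0.061, limma adjusted p = 3.84e-10), Gins3 (0.72 ± 0.14, limma adjusted p = 7.70e-05) and Rfc2 (0.44 ± 0.066, limma adjusted p = 1.93e-06). For Cdt1 the values were 53.7 and 58.4 in knock-in LPS and 34.3 and 34.2 in wild-type LPS libraries. Orc1, Orc6, Rfc3 and Rfc4 did not pass.

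Without LPS the genotypes were not told apart for any member. Limma called 0 of 40 in either direction, and edgeR and DESeq2 on the recovered reads also called 0. At an unadjusted limma p under 0.05 stood 2 of the 40 members, beside 1617 of all 11919 genes tested. Over all genes tested, 0.00839% were called higher and 0% lower, and without wild type untreated replicate 1 limma called 261 genes higher and 220 lower, none of them a member. The summed signal was 1502 and 1494 in knock-in untreated and 1499 and 1491 in wild-type untreated libraries. Member changes ran from -0.25 for Prim1 to 0.15 for Rpa2, and the 95% intervals of all members lay between -0.49 and 0.36, so larger differences on this scale were outside every interval. Rrm2 had 29.3 and 27.2 in knock-in untreated and 30.8 and 31.6 in wild-type untreated libraries, and the pairs do not overlap (limma adjusted p = 0.447).

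The interaction asked whether the LPS change itself differed between genotypes, as the change in the knock-in minus the change in wild type. It was lower for 32 members and higher for 3, beside 31.8% of all genes tested in each direction. The median was -0.82, against 0.013 over all genes tested. Cdt1, Gins3 and Rfc2 were the 3 with a higher change in the knock-in. Orc1, Orc6, Rfc3, Rfc4 and Prim1 did not pass.

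Replication genes outside the list were described in the same way, beside all genes tested, of which 28.3% were called lower and 28.5% higher in the knock-in and 30.7% lower and 26.8% higher in wild type. Of 44 further genes, 26 fell and 5 rose with LPS in the knock-in, with a median of -0.32, and 21 fell and 2 rose in wild type, with a median of -0.21. Clspn, a fork checkpoint adaptor, fell in both (-2.07 in the knock-in and -0.38 in wild type), as did Dtl, which directs the destruction of Cdt1 in S phase (-1.91 and, in wild type, -0.68). Dtl stood at 2.45 and 2.35 in knock-in LPS and 12.98 and 10.7 in knock-in untreated libraries. Orc5, an origin recognition subunit, rose in the knock-in (0.39 ± 0.084, limma adjusted p = 0.000421) and fell in wild type (-0.71 ± 0.084, limma adjusted p = 8.88e-08). Gmnn, geminin, the inhibitor of Cdt1, fell in both (-0.65 in the knock-in and -0.41 in wild type). Among 20 genes of G2 and mitosis, 20 fell with LPS in the knock-in, with a median of -1.86, and in wild type 10 rose and 0 fell, with a median of 0.28. Mki67, a proliferation marker, had 10.7 and 10.6 in knock-in LPS libraries, 49.1 and 45.9 in knock-in untreated libraries, 294 and 263 in wild-type LPS libraries and 53.7 and 61.8 in wild-type untreated libraries. It is lowest in knock-in LPS and highest in wild-type LPS libraries (-2.06 in the knock-in and 2.25 in wild type). Neither the difference between these lists nor between them and the members was tested.

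**Figure D4:**
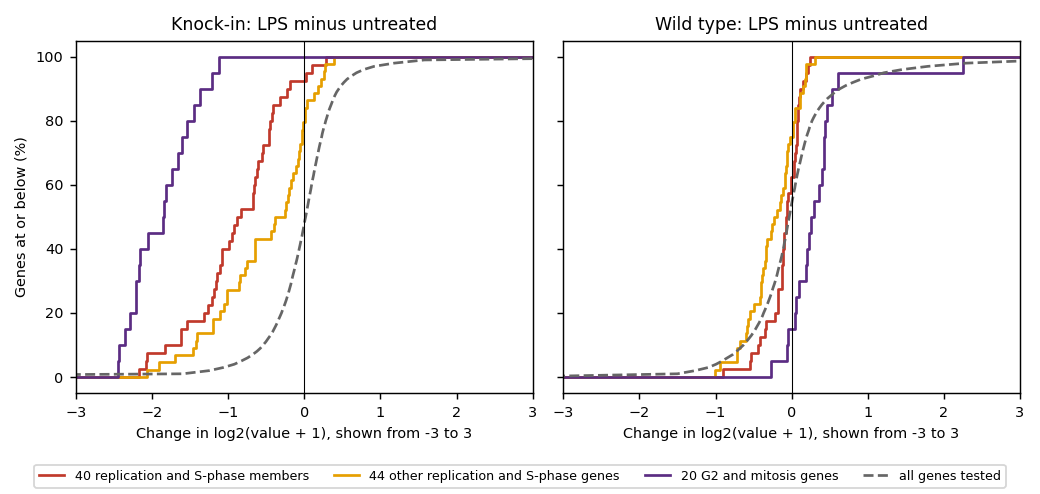
Cumulative share of genes against their change with LPS on the log2(value + 1) scale in the knock-in (left) and in wild type (right), for the members, the other replication genes, the genes of G2 and mitosis and all 11919 genes tested. The medians in the knock-in are -0.86 for members, -0.32 for other replication genes and -1.86 for G2 and mitosis, against 0.016 for all genes.

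Within the 33 members with a promoter window, those with an E2F-type core and those without one both fell in the knock-in. Among the 17 with a core, 14 fell with LPS in the knock-in, with a median of -0.99 and a range of -2.06 to 0.095. Among the 16 with no core in the window, 16 fell, with a median of -0.66 and a range of -2.17 to -0.19. Beside these stand 28.3% of all genes tested called lower in the knock-in. In wild type 6 of the 17 fell, a share near the 30.7% of all genes tested called lower, and 2 rose, beside 26.8% called higher. Among the 16, 1 fell and 1 rose, beside the same shares of all genes. Mcm6, Mcm5, Uhrf1, Cdc6 and Chaf1a, shown above, were lower in knock-in LPS libraries, and Gins3 did not pass there. The difference between the 2 sets was not tested.

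Some members share exon bases with a gene on the other strand. In GENCODE vM21, used for which genes overlap and for chromosomes only, 14 of the 40 members have such an overlap, and for Gins2, Fen1 and Chaf1a it covers over 50% of the exon bases. Whether reads were counted by strand is not given in the sources used here, so reads of such partners cannot be told apart.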

How the data were processed

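RNA was sequenced from 8 libraries in 4 groups of 2, grouped by the labels. The authors deposited a signal per gene, worked out from the values as read counts divided by scaled library size. Each column steps in whole multiples of 1 read, and 100% of values above 0 came out whole within 0.001. TopHat2 2.0.9, mm9, bedtools and edgeR are listed in the submitters' processing notes, without the counting rule or strand.

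Members and lists were chosen with earlier results of these data known. Genes at 1 or more in at least 2 libraries were tested (11919; all 40 members). In R 4.3.3, log2(value + 1) went into limma 3.58.1 with 4 group means, an eBayes trend, 4 residual and 19.1 prior degrees of freedom, two-sided, adjusted by Benjamini-Hochberg in each of 5 comparisons. Changes on this scale understate those of low genes. The limma test was also run on simulated counts with an assumed spread, which cannot check the spread of these libraries. Alternatives covered pseudocount, filter, scaling, robust variance, fewer groups, the replicate number, each library left out, edgeR 4.0.16 quasi-likelihood and DESeq2 1.42.0 on recovered reads. By the naming rule, all 8 values are printed for the member of each role with the highest mean signal and for members with opposite LPS calls; Gins3, Mki67 and further values were added after they were seen. Promoters are RefSeq, GRCm38.p6.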

Additional observations from a re-analysis of the deposited data

Results flagged for a closer look

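The LPS change differed between genotypes, by the limma interaction test, for 35 members, which is why they are given here. Values are the change in the knock-in minus the change in wild type on the log2(value + 1) scale, each from 2 libraries a group, and the largest limma adjusted p among them was 0.025. The difference was below 0 for 32 members. Of the licensing and helicase genes these were Cdc6 (-0.73), Mcm2 (-1.12), Mcm3 (-0.87), Mcm4 (-0.89), Mcm5 (-1.85), Mcm6 (-0.52), Mcm7 (-1.09) and Mcm10 (-1.44). Of the activators and the clamp they were Cdc45 (-1.18), Gins1 (-0.70), Gins2 (-0.86), Pcna (-0.84) and Rfc5 (-0.31). Among polymerases the values were Pola1 (-1.14), Pola2 (-0.70), Prim2 (-0.50), Pold1 (-0.80) and Pole (-1.83). Nucleotide supply gave Rrm1 (-1.62), Rrm2 (-2.33), Tyms (-0.28), Tk1 (-2.07) and Dut (-0.96). The remaining genes were Fen1 (-0.45), Lig1 (-1.26), Rpa2 (-0.93), Uhrf1 (-2.13), Chaf1a (-0.85), Chaf1b (-0.36), E2f1 (-0.50), Ccne1 (-0.76) and Ccne2 (-0.97). The difference was above 0 for 3 members, Cdt1 (0.56), Gins3 (0.66) and Rfc2 (0.39). Of the 35 calls, 6 were lost in an alternative. Gins3 lost its call without wild type LPS replicate 2 (limma adjusted p = 0.0504). Without the authors' factors Rfc5 (limma adjusted p = 0.598), Tyms (0.722), Prim2 (0.0681), Fen1 (0.0833) and Chaf1b (0.308) lost theirs. Rfc5 also lost it without knock-in untreated replicate 2 (limma adjusted p = 0.0680), knock-in LPS replicate 1 (0.0998), wild type untreated replicate 2 (0.0958) or wild type LPS replicate 2 (0.0771). Tyms also lost it after quantile normalization (limma adjusted p = 0.0548) and without knock-in untreated replicate 2 (0.0862) or wild type LPS replicate 1 (0.0694). By sex-linked transcripts knock-in LPS cells were male and the other groups female, so genotype, sex and animal cannot be told apart here. The LPS treatment of the knock-in LPS libraries is again taken from their labels. With LPS, Il1b changed by -0.0013 in the knock-in and 9.92 in wild type, and Tnf by 0.85 and 7.14.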

How the results depend on the processing

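Counts of members called with LPS in the knock-in held in every alternative, at 33 to 36 lower and 1 higher. Between genotypes with LPS 30 to 35 were lower and 2 to 4 higher, and the interaction was lower for 27 to 33 and higher for 2 to 4. Wild-type counts did not. With quantile normalization 1 member was higher and 13 lower, beside 2539 genes higher and 4640 lower over all genes tested. With library-size scaling without the authors' factors 0 members were higher and 33 lower. There the median of all genes was -0.30, over all genes 1612 were higher and 7692 lower, and the interaction called 5775 higher and 2389 lower. Leaving out 1 library gave 1 to 3 higher and 5 to 10 lower in wild type. Without the factors, the wild-type changes were -0.23 for Mcm4, -0.069 for Mcm5, -0.10 for Pcna, -0.22 for Pola1, -0.042 for Pola2, -0.24 for Prim2, -0.21 for Rrm1, -0.20 for Tyms, -0.18 for Lig1 and -0.22 for Uhrf1, and after quantile normalization Pcna was at -0.20, all opposite in sign to the reported change. These are the members that passed the test with or without the change of setting; counting the others too, all 15 members with a positive wild-type change turned negative without the factors, and 10 members changed sign after quantile normalization. Beyond the rescaling of whole libraries that leaving out the factors makes, the cause was not tested, and for quantile normalization it was not tested. Between untreated genotypes no alternative called a member, and over all genes limma called 261 higher and 220 lower without wild type untreated replicate 1, where 1 and 0 were called with all libraries, and DESeq2 called 27 and 37. With the replicate number as a block the counts were the same, at 36 lower in the knock-in and 8 in wild type. Deviations of same-numbered libraries from their group means had correlations of -0.084 to 0.089 over genes. These values show no pairing by number and cannot exclude it, because other spread between libraries can hide a shared part. Depth limits Orc1 most, with 50 reads at its lowest.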

Other observations

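Most E2F factors, their partners and the pocket proteins that restrain them fell with LPS in the knock-in. With LPS in the knock-in 9 of 12 genes fell and 1 rose, with a median of -0.43, beside 28.3% of all genes tested called lower and 28.5% higher. In wild type 3 fell and 4 rose, with a median of -0.072, beside 30.7% called lower and 26.8% higher, which is close to those counts. E2f8, an atypical repressor E2F, had 4.22 and 3.92 in knock-in LPS libraries, 13.7 and 12.5 in knock-in untreated libraries, 26.8 and 23.4 in wild-type LPS libraries and 13.9 and 15.5 in wild-type untreated libraries, lowest in knock-in LPS and highest in wild-type LPS libraries (-1.48 ± 0.097, limma adjusted p = 4.26e-12, in the knock-in; 0.73 ± 0.097, limma adjusted p = 6.02e-07, in wild type). E2f7, its close relative, had 0.540 and 0.688 in knock-in LPS and 3.67 and 3.32 in knock-in untreated libraries (-1.48 ± 0.13, limma adjusted p = 1.23e-09). E2f2, an activator, fell in both genotypes (-0.84 in the knock-in and -0.81 in wild type), and E2f4, which acts mainly as a repressor, rose in both (0.35 in the knock-in and 0.25 in wild type). The same limits of sex and animal hold for each knock-in LPS value.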
